A study of Sus scrofa with 2 samples.

Results

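The let-7 family with miR-98 was described in 2 skeletal muscles of the pig, the oxidative *psoas major* (PMM) of the loin and the glycolytic *longissimus dorsi* (LDM) of the back. Every pig (ssc) entry named let-7 with any letter, copy or arm, and every miR-98 entry, was taken from the deposited miRNA table by name, which gave 14 members of 668 entries, or of 281 entries named after pig miRNAs. They are the 5p and the 3p strand of 7 precursors, let-7a-1, let-7c, let-7e, let-7f, let-7g, let-7i and miR-98. Both muscles came from the same 3 female Landrace pigs, slaughtered at 210 days of age. Equal amounts of RNA of the pigs were mixed within a muscle to make 1 small RNA library of it. The spread between pigs was not measured and no test between the muscles was possible. All intervals given are 95% intervals and express counting error alone.

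miRNAs are short RNAs that guide an Argonaute protein to messenger RNAs, mainly through bases 2 to 8 from their 5′ end, the seed. A hairpin precursor yields a 5p and a 3p strand, of which one is usually loaded as the guide and the other, the passenger, is mostly degraded. let-7 was found in *Caenorhabditis elegans* as a switch of developmental timing. In mammals it is abundant in differentiated adult tissues, it represses growth genes such as RAS genes and HMGA2, and the RNA-binding protein LIN28 blocks the maturation of its precursors. In mice the LIN28 and let-7 axis also acts on insulin signalling and glucose use, including in skeletal muscle.

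The 7 guide strands are shown first because they differ by single bases, and this bears on how their reads can be told apart. The capitals mark the seed. The letters are those of the deposited consensus sequences, with T for U.
let-7f-5p: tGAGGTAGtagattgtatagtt
let-7a-1-5p: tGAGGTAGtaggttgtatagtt
let-7g-5p: tGAGGTAGtagtttgtacagtt
let-7i-5p: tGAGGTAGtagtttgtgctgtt
let-7c-5p: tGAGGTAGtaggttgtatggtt
miR-98-5p: tGAGGTAGtaagttgtattgtt
let-7e-5p: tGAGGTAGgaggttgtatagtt

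All 7 guide strands are 22 nt long and share the seed GAGGTAG. No other entry of the 668 carried this seed at bases 2 to 8, and none of the others held it anywhere in its sequence. The guide strands share 16 of 22 positions and vary at positions 9, 11, 12, 17, 18 and 19, counted from 1 at the 5′ end. Relative to let-7a-1-5p, let-7f-5p has the single difference G12A, let-7c-5p A19G and let-7e-5p T9G. let-7g-5p differs by G12T and T18C, miR-98-5p by G11A and A19T, and let-7i-5p by G12T, A17G, T18C and A19T. Across the 21 pairs of guide strands the number of mismatches was 1 to 5. How many mismatches the authors allowed when reads were assigned is not given in the sources used here, so the split of reads between members 1 base apart is uncertain. let-7a and let-7f each have 2 gene copies in the RefSeq annotation of assembly Sscrofa11.1, and reads of a guide strand that both copies encode cannot be assigned to one of them. No pig entry was named let-7d, which is annotated there as well.

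The 3p strands are shown because the strand shares given further on rest on their reads. The capitals again mark bases 2 to 8.
let-7f-3p: cTATACAGtctactgtctttct
let-7e-3p: cTATACGGcctcctagctttcc
let-7i-3p: cTGCGCAAgctactgccttgct
let-7g-3p: cTGTACAGgccactgccttgc
miR-98-3p: cTATACAActtactactttcct
let-7a-1-3p: cTGTACAGcctcctagctttcc
let-7c-3p: cTGTACAAccttctagctttcc

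None of the 3p strands carried the guide seed. They had 6 different sequences at bases 2 to 8, and the only pair with the same one was let-7a-1-3p and let-7g-3p. Pairs of 3p strands differed at 2 to 11 of the positions compared, and the closest pairs were let-7e-3p with let-7a-1-3p and let-7a-1-3p with let-7c-3p. A related seed was found outside the family. Bases 2 to 8 of miR-196b-5p (tAGGTAGTttcctgttgttggg), a miRNA encoded among HOX genes, equal bases 3 to 9 of let-7a-1-5p, as do those of the entry PN-49-5p, which had 4 normalised reads in PMM and was listed at 0 in LDM.

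The depth of the libraries was similar. PMM held 8556672 reads, and LDM held 8750049 normalised reads, which correspond to 7603850 reads at 1.15 normalised units per read. The lowest value above 0 was 3 reads in either library, so that an entry listed at 0 had fewer. Of the 668 entries 593 were above 0 in PMM and 424 in LDM, so the libraries were less alike in low entries. The labelled tissue was checked against its markers. The 4 miRNAs of striated muscle, miR-1, miR-133a, miR-133b and miR-206, held 50.9% of the PMM reads and 68.6% of the LDM reads, whereas miR-122 of the liver had 10 normalised reads in PMM and 8.06 in LDM. Of 11 miRNAs listed for endothelial, smooth muscle, fibroblast, red blood, leukocyte and nerve cells 7 were found by name, and the summed level of each of these 6 lists was higher in PMM, by 1.18-fold for red blood cells to 5.96-fold for nerve. The endothelial miR-126 stood at 2734 RPM (reads per 1000000 of the library) in PMM and 1345 RPM in LDM, the fibroblast miR-199a (its 3p entry joined with miR-199b) at 3972 RPM and 1705 RPM in the same order, and the nerve miR-9 at 22.4 RPM and 3.68 RPM. Most entries were higher in PMM as deposited, 71.4% of the 185 that averaged 10 RPM or more. Their median was 1.28-fold, and the red blood cell list lay below it. The part of these cells in the results below was not tested. In whole muscle, fewer cells of a type and less RNA per cell cannot be told apart.

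The family as a whole was compared first. Its 14 members summed to 315131 normalised reads in PMM and 253469 in LDM, which was 3.68% of the PMM library (3.67 to 3.70) and 2.90% of the LDM library (2.88 to 2.91). The sum was 1.24-fold higher in PMM (1.24 to 1.25), or 0.31 on the log2 scale. The median log2 ratio of PMM to LDM was 0.47 over the 91 entries that averaged 100 RPM or more, and the family sum lay below it. The sum was close to the median of 0.35 over the 185 entries that averaged 10 RPM or more. The direction of the family sum depended on the scaling. After centring on that median its log2 ratio was −0.038, and it lay between −0.060 and −0.30 when the libraries were scaled by a trimmed mean of their ratios, by their reads outside the 10 highest entries or by their reads outside the muscle miRNAs. Of the reads outside the muscle miRNAs the family took 7.51% in PMM (7.48 to 7.53) and 9.22% in LDM (9.19 to 9.26), so that by this measure it was higher in LDM. The make-up of the family and its strand shares, given below, do not depend on the scaling, because numerator and denominator come from the same library.

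ssc-let-7f-5p (let-7f-5p below) was the highest member in both muscles, with 171411 normalised reads in PMM, where it ranked 8 of all entries, and 155724 in LDM, where it ranked 6. ssc-let-7a-1-5p followed with 95080 in PMM and 65131 in LDM, and ranked 10 in both. Together these guides held 84.6% of the family reads in PMM and 87.1% in LDM. let-7g-5p, whose precursor lies within the gene WDR82 in assembly Sscrofa11.1, had 20629 in PMM and 15728 in LDM. let-7i-5p had 14837 in PMM and 7738 in LDM, and let-7c-5p 7968 in PMM and 3776 in LDM. The lowest guides were miR-98-5p, with 3336 in PMM and 3654 in LDM, and let-7e-5p, with 1631 in PMM and 1608 in LDM.

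The order of the 7 guides was the same in both muscles, and in PMM every neighbouring pair in it differed by more than counting error. In LDM let-7c-5p and miR-98-5p did not, with 1.03 reads of let-7c-5p per read of miR-98-5p (0.984 to 1.09), against 2.39 in PMM (2.29 to 2.49). Every 3p strand lay below every guide strand. The step between the groups was 16.5-fold in PMM and 42.3-fold in LDM, from let-7e-5p down to let-7f-3p.

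**Figure D1:**
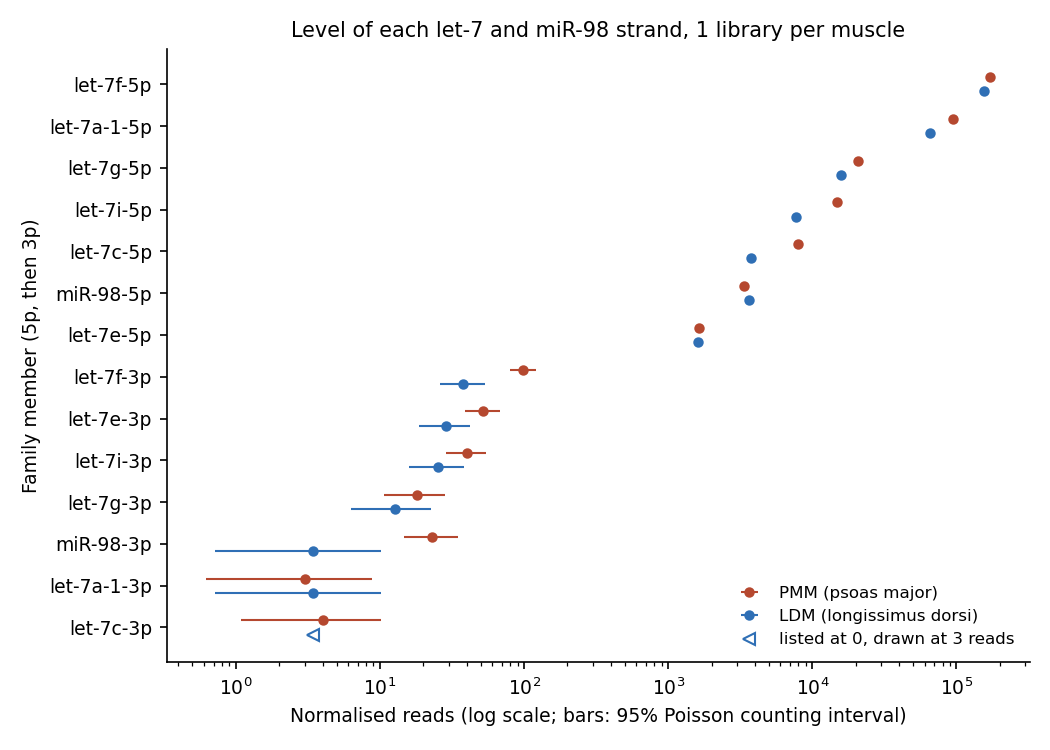
Normalised reads (x axis, log scale) of the 14 members (y axis) in the PMM and the LDM library, 1 library per muscle, with bars for the 95% Poisson counting interval and an open triangle at 3 reads for an entry listed at 0. The 7 guide strands run from 171411 normalised reads for let-7f-5p to 1631 for let-7e-5p in PMM, and the 3p strands lie at 99 or fewer.

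The make-up of the family differed between the muscles. let-7f-5p held 54.4% of the family in PMM (54.2 to 54.6) and 61.4% in LDM (61.2 to 61.6), a difference of −7.04 percentage points. let-7a-1-5p held 30.2% in PMM (30.01 to 30.33) and 25.7% in LDM (25.5 to 25.9). There were thus 1.80 let-7f-5p reads per let-7a-1-5p read in PMM (1.79 to 1.82) and 2.39 in LDM (2.37 to 2.41). let-7i-5p held 4.71% in PMM and 3.05% in LDM, and let-7c-5p 2.53% and 1.49% in the same order. let-7g-5p was nearly level at 6.55% in PMM and 6.21% in LDM. miR-98-5p held 1.06% in PMM and 1.44% in LDM, and let-7e-5p 0.518% and 0.634%, so that both were a smaller part of the family in PMM. At this depth the counting intervals of the shares were narrow. They did not overlap even for let-7g-5p, at 6.46 to 6.63 in PMM and 6.10 to 6.31 in LDM. Such intervals do not measure the spread between pigs.

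The guides that are 1 base from let-7a-1-5p did not keep a fixed proportion to it. let-7c-5p had 8.38 reads per 100 reads of let-7a-1-5p in PMM and 5.80 in LDM. let-7e-5p had 1.72 per 100 in PMM and 2.47 in LDM, in the opposite direction. let-7f-5p had 180.3 per 100 in PMM and 239.1 in LDM.

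**Figure D2:**
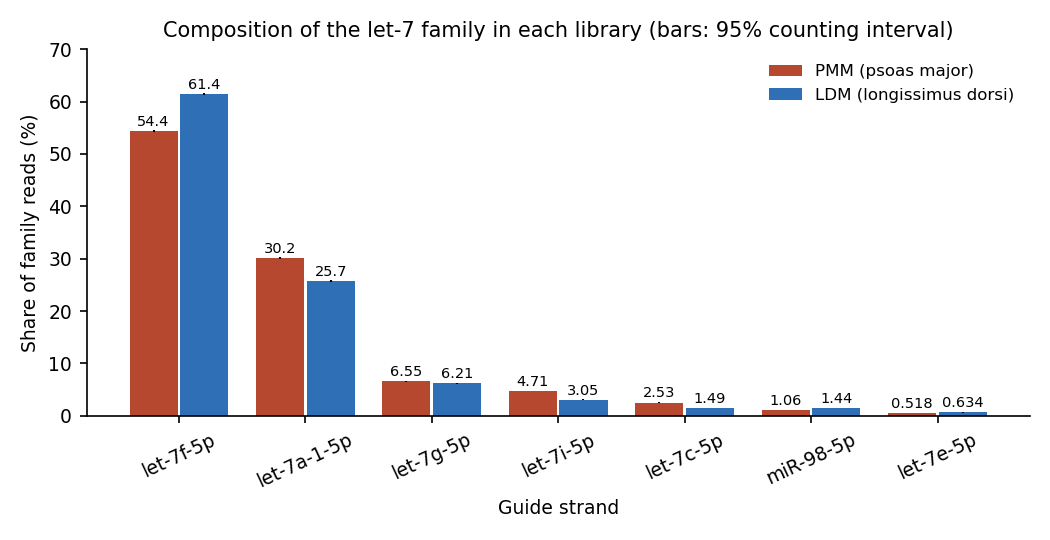
Share of the family reads (y axis, percent) held by each guide strand (x axis) in the PMM and the LDM library, with thin bars for the 95% Clopper-Pearson interval. let-7f-5p stands at 54.4% in PMM and 61.4% in LDM, and let-7a-1-5p at 30.2% and 25.7%.

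Ratios of PMM to LDM differed among the members. Of the 7 guides 6 were higher in PMM as deposited, beside 71.4% of the 185 entries that averaged 10 RPM or more. With the 3p strands, all under 10 RPM, 12 of the 14 members were, for which no share over all entries is given. The interval of the ratio lay above 1 for 8 members, where it did for 21.3% of all 668 entries, and below 1 for 1 member, where it did for 8.23%. It held 1 for 4 members, and 1 member was listed at 0 in LDM. Of the 668 entries 319 were listed at 0 in a library and had no interval, which lowers the 21.3% and the 8.23%. The 7 guide strands reached 10 RPM, and the 7 passenger strands did not. Among the guides the interval lay above 1 for 5, beside 60.5% of the 185 entries, and below 1 for 1, beside 23.2%. Of the guides 2 were at least 1.5-fold higher in PMM on the log2 scale with a pseudocount of 1 RPM, where 40% of all entries at that level were, and 0 were at least 1.5-fold lower, where 13.5% were. At 2-fold there was 1 guide higher, beside 21.6% of all entries, and 0 lower, beside 6.49%. The median log2 ratio was 0.39 over the guides, against 0.35 over the 185 entries. It was 0.55 over the 3p strands and 0.53 over the 14 members, or 0.45 with let-7c-3p set at its bound. Over all 668 entries, low ones included, it was 0.43.

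let-7c-5p had the highest ratio of the guides, 2.11-fold higher in PMM (2.03 to 2.20), followed by let-7i-5p at 1.92-fold (1.86 to 1.97). let-7a-1-5p was 1.46-fold higher (1.44 to 1.48) and let-7g-5p 1.31-fold (1.28 to 1.34). These 4 guides lay above the median ratio of the 185 entries and 3 lay below it. Over the 91 entries that averaged 100 RPM or more, as all 7 guides did, the median log2 ratio was 0.47, above let-7g-5p at 0.39. let-7f-5p was 1.10-fold higher (1.09 to 1.11), so that the most abundant guide was among those whose ratio was nearest to 1. For let-7e-5p the interval of the ratio held 1 (1.01-fold, 0.944 to 1.09). miR-98-5p was the only guide lower in PMM, at 0.913-fold (0.870 to 0.959). Relative to the median of the 185 entries let-7c-5p, let-7i-5p, let-7a-1-5p and let-7g-5p kept a log2 ratio above 0, at 0.72, 0.59, 0.19 and 0.039, whereas let-7f-5p, let-7e-5p and miR-98-5p were at −0.21, −0.33 and −0.48. Scaled by the reads outside the muscle miRNAs, 2 of the 7 guides, let-7c-5p and let-7i-5p, were higher in PMM and 5 were lower, beside 36.8% higher and 63.2% lower of the 185 entries. On that scaling 0 guides were at least 1.5-fold higher in PMM, where 16.2% of the entries were, and 2 guides, let-7e-5p and miR-98-5p, were at least 1.5-fold lower, where 30.8% were.

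The other members together had a higher ratio than let-7f-5p, which is the same difference in make-up seen from the other side. Without let-7f-5p the family had 143720 normalised reads in PMM and 97745 in LDM, or 1.47-fold more in PMM (1.46 to 1.48) as deposited, beside 1.10-fold for let-7f-5p and a median of 1.28-fold over the 185 entries. Whether the others were higher in PMM depended on the scaling. Their log2 ratio was 0.20 relative to that median, where let-7f-5p was at −0.21, and −0.055 when scaled by the reads outside the muscle miRNAs, where let-7f-5p was at −0.47.

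**Figure D3:**
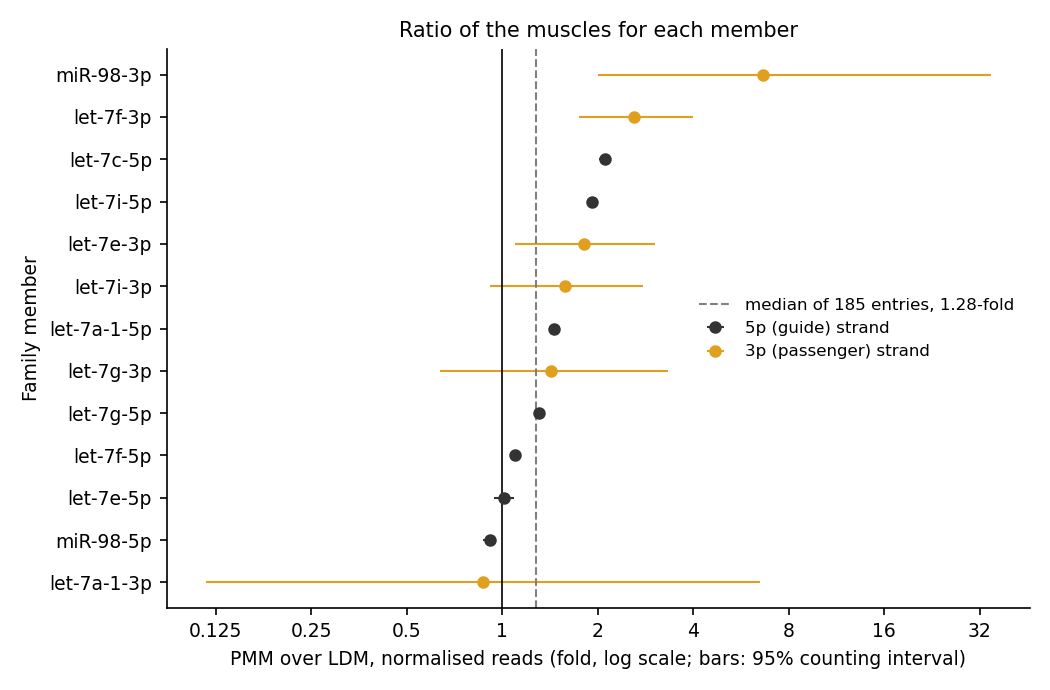
Ratio of PMM to LDM in normalised reads (x axis, fold on a log scale) for the 13 members above 0 in both libraries (y axis, ordered by ratio), with bars for the 95% counting interval, a solid line at 1 and a dashed line at the median of 185 entries, 1.28-fold. let-7c-5p and let-7i-5p lie well to the right of the dashed line with narrow bars, miR-98-5p lies to the left of 1, and most 3p strands have wide bars.

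Passenger strands were rare in this family. The 3p strands summed to 239 normalised reads in PMM and 112 in LDM (97 reads), which was 0.0758% of the family in PMM (0.0665 to 0.0861) and 0.0440% in LDM (0.0357 to 0.0537). The odds of a read coming from the 3p strand were 1.72-fold higher in PMM (1.36 to 2.20). This rests in large part on let-7f. Without its precursor the shares were closer, 0.0975% in PMM and 0.0754% in LDM, and no interval was computed for their difference. Other miRNAs had a higher median share of their minor strand, but low shares were not particular to the family. Among precursors with an entry for each arm and at least 100 RPM over both arms, the median share of the lower arm was 0.0872% in PMM and 0.0804% in LDM over the 7 family precursors (0.0914% in LDM with let-7c at its floor of 3 reads), against 0.645% in PMM and 0.714% in LDM over 49 other pig precursors (0.748% in LDM with entries at 0 set to that floor). Abundant miRNAs among the others also had low shares in PMM, such as miR-1 at 0.0022%, miR-206 at 0.0020% and miR-21 at 0.049%. In the family, let-7e at 3.09% and miR-98 at 0.685% in PMM lay above the median of the others. The lower arm held under 1% in PMM in 6 of the 7 family precursors, and in 27 of the 49 others. Its share was higher in PMM than in LDM in 4 of the 7 and lower in 2, and for let-7c the direction could not be told, since its 3p strand was listed at 0 in LDM. Of the 49 others it was higher in PMM in 22 and lower in 24, and for 3 it could not be told. Entries listed under joined names, such as those of miR-133a, were left out of this comparison, whereas let-7a-1 and let-7f, each with another gene copy, were kept.

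The precursors of the family differed widely in strand use. let-7e had the highest share of its 3p strand, 3.09% of both arms in PMM (2.32 to 4.03) and 1.76% in LDM (1.14 to 2.58), from 52 and 25 reads. let-7a-1 had the lowest in PMM, with 3 reads of let-7a-1-3p in either library beside 95080 reads of the guide in PMM and 56599 in LDM. In LDM it could not be told from let-7c, whose 3p strand was listed at 0. That guide may also come from the other copy of let-7a, in which case the share of this precursor is understated. The same holds for let-7f, whose 3p strand held 0.0577% in PMM (0.0469 to 0.0703) and 0.0244% in LDM (0.0168 to 0.0342).

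In 3 of the 7 precursors the strand share differed between the libraries beyond counting error, each time with more 3p strand in PMM. Of the 49 other precursors the interval of the odds lay above 1 in 26.5%, with more of the lower arm in PMM, and below 1 in 30.6%, so that such a difference was common. For let-7f there were 99 reads of let-7f-3p in PMM and 33 in LDM, and the odds of the 3p strand were 2.37-fold higher in PMM (1.58 to 3.63). let-7f-3p itself was 2.61-fold higher in PMM (1.74 to 3.99), while let-7f-5p was 1.10-fold higher. For miR-98 there were 23 reads of miR-98-3p in PMM and 3 in LDM, with odds 7.29-fold higher (2.20 to 38.0). miR-98-3p was thus 6.66-fold higher in PMM (2.01 to 34.7), whereas its guide was lower in PMM. For let-7e the odds were 1.78-fold higher (1.08 to 3.01), with let-7e-3p 1.81-fold higher (1.10 to 3.04) beside a guide whose interval held 1.

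In the other precursors no difference in strand share was detectable at this depth. let-7i-3p had 40 reads in PMM and 22 in LDM, with odds of 0.824 (0.478 to 1.46). let-7g-3p had 18 reads in PMM and 11 in LDM, with odds of 1.08 (0.485 to 2.54). For let-7a-1-3p the odds were 0.595 (0.0797 to 4.44). let-7c-3p had 4 reads in PMM and was listed at 0 in LDM, at least 1.16-fold higher against a floor of 3 reads in LDM, and the 3p share of let-7c was 0.0502% in PMM and at most 0.0914% in LDM at that floor.

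**Figure D4:**
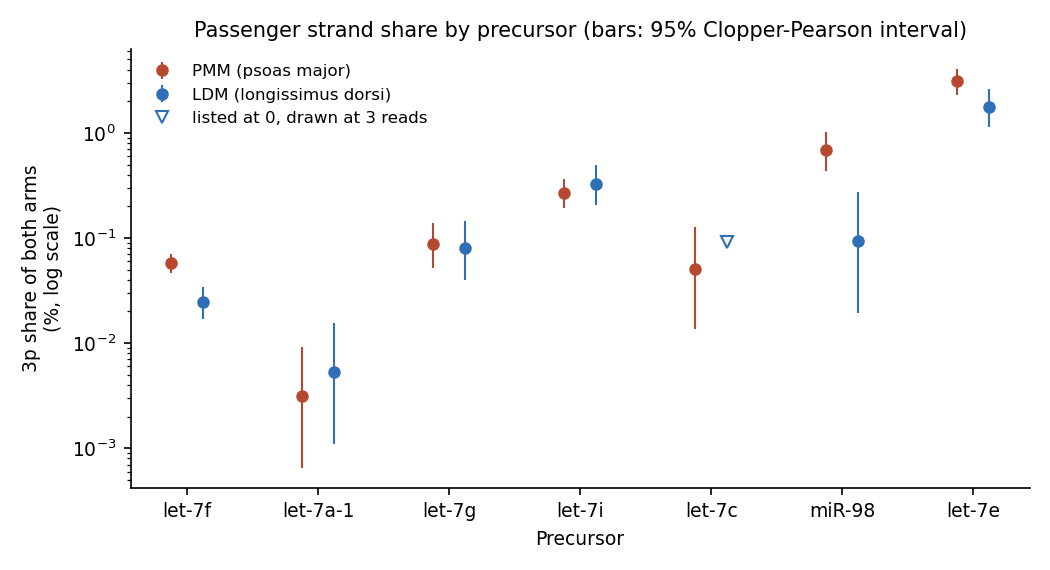
Share of the 3p strand in the reads of both arms (y axis, percent, log scale) for the 7 precursors (x axis) in the PMM and the LDM library, with bars for the 95% Clopper-Pearson interval and an open triangle at 3 reads where the strand was listed at 0. let-7f stands at 0.0577% in PMM and 0.0244% in LDM, miR-98 at 0.685% and 0.0944%, and let-7e at 3.09% and 1.76%.

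Several family members are encoded beside other miRNAs, with which they can be transcribed together. All 7 precursors were found by name in the RefSeq annotation of assembly Sscrofa11.1, which is not the build of the files, so only neighbours within 10 kb are given. Ratios at these loci are as deposited, and their direction can depend on the scaling. let-7e lies beside miR-99b and miR-125a, and the 3 guides had similar ratios. let-7e-5p was 1.01-fold, miR-99b-5p 1.03-fold (0.957 to 1.11) and miR-125a-5p 1.12-fold higher in PMM (1.08 to 1.16). The 3p strand of miR-99b, like that of let-7e, was higher in PMM, with 17 normalised reads in PMM and 3.45 in LDM (4.92-fold, 1.42 to 26.2), and miR-125a-3p had 40 in PMM and 44.9 in LDM.

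let-7c lies beside miR-99a, and both were higher in PMM, let-7c-5p 2.11-fold and miR-99a-5p 1.53-fold (1.46 to 1.60), with miR-99a-3p at 2.54-fold (1.93 to 3.39). let-7a-1 lies beside miR-100, and miR-100-5p was 1.20-fold higher (1.15 to 1.26) beside 1.46-fold for let-7a-1-5p. miR-100-3p had 4 normalised reads in PMM and 10.4 in LDM (0.386-fold, 0.0869 to 1.38). miR-98 and let-7f-1 lie together within HUWE1, a gene for a ubiquitin ligase. As deposited the guides there went opposite ways, with let-7f-5p 1.10-fold higher and miR-98-5p 0.913-fold, or 0.27 apart on the log2 scale. Relative to the median of all entries that averaged 10 RPM or more, both were lower in PMM, at −0.21 and −0.48. The let-7f reads may also include those of let-7f-2, which lies with let-7a-2 and let-7d at another locus. The entries let-7f-3p and miR-98-3p were both higher in PMM, but from which copy let-7f-3p comes was not tested. let-7i and let-7g had no miRNA neighbour within that distance.

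**Figure D5:**
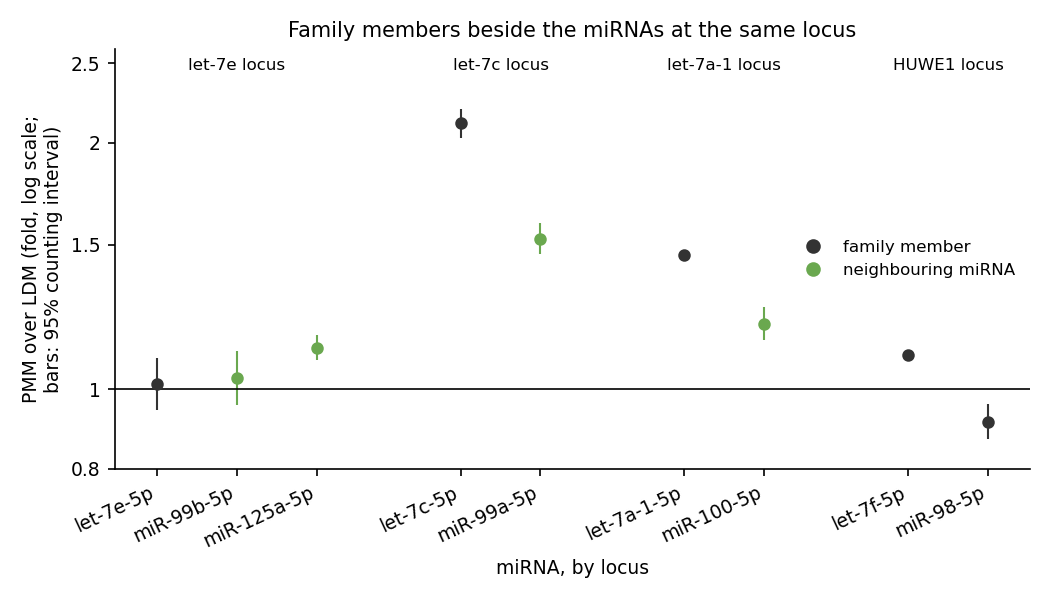
Ratio of PMM to LDM (y axis, fold on a log scale, with 95% counting intervals) for guide strands of the family and of the miRNAs at the same locus (x axis, grouped by locus). Ratios are as deposited, and let-7f-5p is drawn at the HUWE1 locus although its reads may also come from let-7f-2. The let-7e locus lies near 1, let-7c-5p stands at 2.11-fold beside miR-99a-5p at 1.53-fold, and miR-98-5p lies below 1.

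The miRNAs whose ratio was most like that of the family sum were looked for among the 78 other pig entries that averaged 100 RPM or more. Likeness was the difference in log2 ratio over the 2 libraries, so it rests on 1 ratio per entry. The 5 closest were miR-331-3p (0.32), miR-30d-5p (0.31), miR-29c-3p (0.35), miR-7-5p (0.35) and miR-100-5p (0.27), against 0.31 for the family. A ratio of this size was common, since 18 of the 78 entries lay within 0.2 of it.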

How the data were processed

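Total RNA of PMM and LDM was pooled over pigs, and small RNAs of each pool were sequenced single-end. The labels name the genome build Sscrofa 10.2, while the aligner, the miRNA annotation and how values were normalised are not given in the sources used here. Adipose tissue is named in the extraction protocol, whereas all other labels give muscle. The deposited table holds normalised reads, treated as a signal that is never negative, with consensus sequences. A column of p-values by the authors was not used, nor was their sum column. LDM values were whole multiples of 1.15 units and PMM values whole numbers (tolerance 0.001), except in 1 row that is no member, and reads were recovered by division.

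The members and lists were chosen with earlier results of these data known. All members are named. Intervals are exact conditional binomial for ratios, Clopper-Pearson for shares and exact conditional for odds ratios, at 95%. Reads carried no molecular identifiers, so intervals and floors cover counting error only. Log2 ratios of single entries carry a pseudocount of 1 RPM (8.65 units), which understates changes of low entries, and those of sums carry none. Fold values have no pseudocount. The trimmed mean of log ratios left out 30% of ratios and 5% of levels at each end, unweighted. Neighbouring genes come from RefSeq, assembly Sscrofa 11.1. The intervals of ratios and shares were run on simulated Poisson counts, which hold counting error alone, so this cannot show how they cover any other spread. The intervals of odds ratios were not run on simulated data. Scripts ran under Python 3.11.15 with scipy 1.17.1, numpy 2.4.6, matplotlib 3.10.9 and pandas 2.3.3.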

Additional observations from a re-analysis of the deposited data

How the results depend on the processing

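Leaving out let-7f-5p or the muscle miRNAs was chosen after seeing the data. The other alternatives were planned. The log2 ratio of the family sum (0.31) was −0.038 after centring on the median ratio, −0.060 with the trimmed mean, −0.063 when scaled by reads outside the 10 highest entries and −0.30 by reads outside the muscle miRNAs. Each of these scalings lowers all ratios by the same amount. It was 0.35 in RPM and 0.56 without let-7f-5p. With pig entries as the total the family held 3.71% of PMM and 2.92% of LDM, and 7.51% and 9.22% without the muscle miRNAs. Of the guides at least 1.5-fold higher in PMM (2), 1 was left with the trimmed mean, when scaled outside the 10 highest and at a limit of 2-fold. Without a filter there were 5 members, with let-7f-3p, let-7e-3p and miR-98-3p added, all under 10 RPM. No share over all entries is given for that count, so it cannot be judged. Scaled by reads outside the muscle miRNAs there were 0 higher and 2 lower, whereas 0 were 1.5-fold lower as deposited and under the other alternatives run on that count. The passenger share without the let-7f precursor was 0.0975% in PMM and 0.0754% in LDM. The median log2 ratio of members was −0.079 when scaled by reads outside the muscle miRNAs, and above 0 under the other alternatives run for it, from 0.15 when scaled outside the 10 highest to 0.59 with a pseudocount of 0.1 RPM. No replicate could be left out, with 1 library per muscle. No paired analysis was possible because each muscle has 1 pooled library. Depth limits the 3p strands, of which let-7c-3p and let-7a-1-3p had at most 4 reads.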
